A study of Mus musculus with 9 samples.

Results

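The Tdpoz genes and their relative Spop were followed across mouse embryonic stem cells (ESCs) depleted of Dppa2 or Dppa4. Members were the rows of the deposited expression table named Tdpoz followed by a digit, or Spop. Of 25965 rows, 5 met this rule: Tdpoz1, Tdpoz3, Tdpoz4, Tdpoz5, and Spop. No row carries the name Tdpoz2, but the row AC132362.1 lies at the place of that gene and is described in the table as its product, so it is given here under its own name. E14 cells, an ESC line of 129/Ola background, were grown in serum and LIF without feeder cells. The study describes the cells used for knockdown as a line with MERVL::tdTomato and Zscan4c::eGFP reporters, which mark 2-cell-like cells; the labels name E14 alone. The siRNA (control, Dppa2, or Dppa4) was given at the start and again at 48 h, and RNA was collected at 96 h (4 d). Each siRNA was used in 3 libraries, called A, B, and C, of polyadenylated RNA. All 9 libraries come from 1 line, and siRNA lowers a transcript without removing the gene.

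The TDPOZ proteins and SPOP share the same plan, a MATH domain (also called a TRAF domain, the "TD" of the name) followed by a BTB or POZ domain. In SPOP, the MATH domain binds substrate proteins and the BTB domain binds Cullin 3, so that SPOP works as the substrate adaptor of a Cullin 3 ubiquitin ligase. Spop is expressed broadly, whereas the Tdpoz genes are known from oocytes and the early mouse embryo and belong to the transcripts that mark the rare 2-cell-like cells of ESC cultures.

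In control siRNA cells, Tdpoz4 and Tdpoz3 were detected at low levels and Tdpoz1 was close to the detection limit, whereas none of the 6 knockdown libraries contained a read on any Tdpoz gene. Spop was abundant in all 9 libraries and did not pass the test in either knockdown. Because the RNA is from whole cultures, fewer cells that express a Tdpoz gene and less of its RNA per cell cannot be told apart. The labels do not say whether the libraries of a group came from separate cultures, so p-values measure the spread between these libraries, which may be technical.

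The deposited values are on a log2 scale, normalized by the authors, and hold no counts. Each library holds few distinct low values, and their rank was read as the number of reads, with the lowest value standing for no reads. By this inference, control siRNA libraries held 19.3 to 39.9 Mreads on genes, Dppa2 siRNA libraries 17.2 to 25.6 Mreads, and Dppa4 siRNA libraries 21.2 to 28.5 Mreads. The targeted transcripts were lowered as labelled. Dppa2 had log2 values of 6.94 to 7.26 in control and 3.36 to 3.86 in Dppa2 siRNA libraries, and Dppa4 had values of 7.02 to 7.11 in control and 6.09 to 6.16 in Dppa4 siRNA libraries. Each remained between 7.01 and 7.17 in the libraries given the other siRNA. Of 16 ESC markers, among them Pou5f1 and Nanog, none passed the test in either knockdown, and their summed linear level was 4906 to 5498 in control, 5416 to 5582 in Dppa2 siRNA, and 5243 to 5421 in Dppa4 siRNA libraries.

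The 5 Tdpoz genes lie together on chromosome 3 (GRCm38, GENCODE M21 annotation). Tdpoz2 (ENSMUSG00000103362) spans chr3:93651542-93652686 on the minus strand, Tdpoz1 (ENSMUSG00000094084) chr3:93669333-93676310 on the minus strand, and Tdpoz4 (ENSMUSG00000060256) chr3:93796398-93797510 on the plus strand. Tdpoz3 (ENSMUSG00000058005) spans chr3:93826020-93827117 on the plus strand, and Tdpoz5 (ENSMUSG00000094163) chr3:93960292-93961314 on the minus strand. The transcripts used here for these genes have 1 exon. The models of Tdpoz3, Tdpoz4, and Tdpoz5 begin at the first coding base. Spop (ENSMUSG00000057522) is on chromosome 11 at chr11:95414080-95493406, on the plus strand, in 11 exons that join to a transcript of 2881 bases. The coding sequences give proteins of 340 (Tdpoz5) to 370 residues (Tdpoz4) in the cluster and of 374 residues for Spop.

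The likeness of the genes decides which of them a read of 50 bases can tell apart, so 2 aligned stretches of 60 coding bases are shown, with capitals marking each base that differs from Tdpoz4. The first, coding bases 592 to 651 of the Tdpoz genes and 628 to 687 of Spop, is the stretch where the 6 genes are most alike. In Spop it crosses an exon border.
Tdpoz4: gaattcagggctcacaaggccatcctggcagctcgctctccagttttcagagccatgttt
Tdpoz3: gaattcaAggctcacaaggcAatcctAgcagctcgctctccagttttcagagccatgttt
Tdpoz1: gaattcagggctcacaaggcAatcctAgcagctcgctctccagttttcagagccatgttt
Tdpoz2: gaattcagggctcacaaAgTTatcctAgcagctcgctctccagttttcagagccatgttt
Tdpoz5: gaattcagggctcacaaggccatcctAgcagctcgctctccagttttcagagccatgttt
Spop: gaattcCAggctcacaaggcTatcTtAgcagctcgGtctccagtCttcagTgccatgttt
Here Tdpoz5 has 1 difference from Tdpoz4 and Spop has 8. The second stretch is coding bases 109 to 168 of the Tdpoz genes and 145 to 204 of Spop. In it Tdpoz3 and Tdpoz4 differ at about the rate of their whole coding sequences.
Tdpoz4: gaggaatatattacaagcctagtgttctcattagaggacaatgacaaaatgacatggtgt
Tdpoz3: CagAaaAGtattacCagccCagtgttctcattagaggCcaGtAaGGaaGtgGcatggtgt
Tdpoz1: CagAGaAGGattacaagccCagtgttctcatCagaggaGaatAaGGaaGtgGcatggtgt
Tdpoz2: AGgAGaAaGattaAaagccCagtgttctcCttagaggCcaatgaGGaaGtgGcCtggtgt
Tdpoz5: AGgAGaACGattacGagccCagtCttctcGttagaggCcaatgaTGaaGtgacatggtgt
Spop: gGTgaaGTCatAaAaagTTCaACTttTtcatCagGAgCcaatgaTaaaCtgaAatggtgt
Here the other Tdpoz genes have 13 to 15 differences from Tdpoz4 and Spop has 21. For Tdpoz1, Tdpoz2, Tdpoz5, and Spop this stretch is less alike than the whole coding sequence. Their identity to Tdpoz4 over the latter was 78.8%, 81.2%, 81.0%, and 74.2%.

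Over the whole coding sequence, Tdpoz3 and Tdpoz4 were 79.2% identical and their proteins 62.6%. Tdpoz1 and Tdpoz3 were closer, at 88.4% for the coding sequence and 77.5% for the protein. Spop was 73.8% to 75.8% identical to the Tdpoz genes in coding sequence, and its protein 57.5% to 60.5%. Spopl, the paralog that can join SPOP in the ligase, had 83.4% protein identity to Spop.

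**Figure D1:**
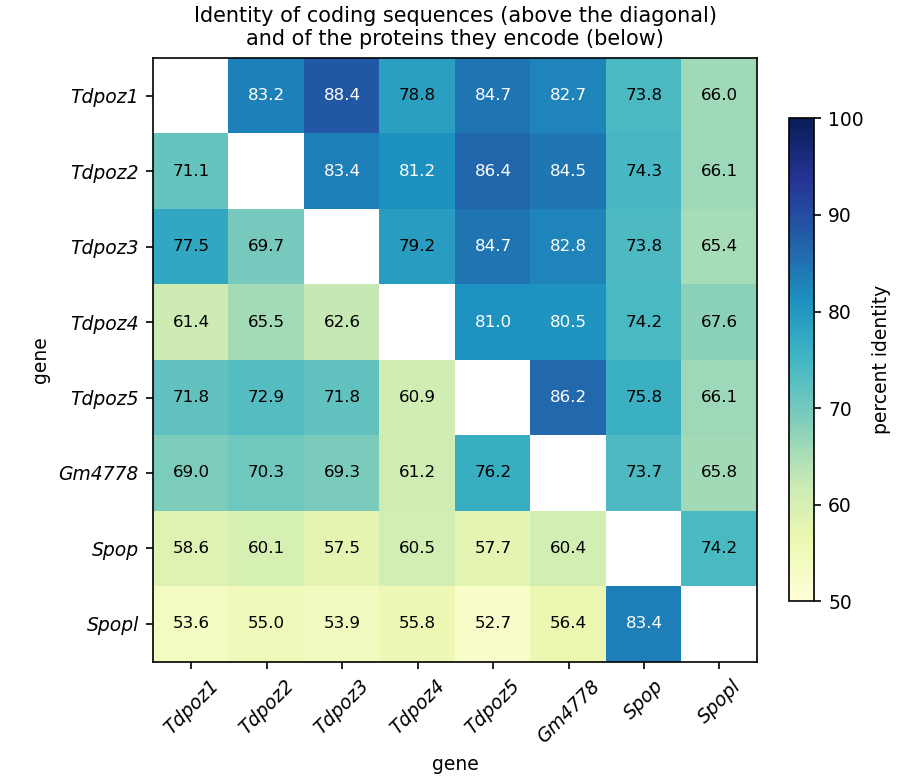
Percent identity between genes of the Tdpoz family, Spop, and Spopl (both axes are genes; above the diagonal, coding sequences; below, the proteins they encode). Spop and Spopl share 83.4% of aligned residues, Tdpoz1 and Tdpoz3 77.5%, and Spop and the Tdpoz genes 57.5% to 60.5%.

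Not every stretch of these transcripts is unique. Of all stretches of 50 bases, 41.2% in Tdpoz4, 66.2% in Tdpoz3, 41.5% in Tdpoz1, 48.3% in Tdpoz2, and 100% in Tdpoz5 also occur in another annotated gene, compared with 0% in Spop. The Tdpoz3 stretches are shared with the pseudogene Gm4982, those of Tdpoz4 chiefly with the pseudogene Gm5541 (31.0% of all its stretches) and with Gm4858 (23.4%). Tdpoz5 is identical to Gm10697 over its whole length. How reads that match several genes were counted is not given in the sources used here, so reads could be split within the family, and a value of no reads for Tdpoz5 does not separate a silent gene from one whose reads were set aside.

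Sequences upstream of the annotated gene starts are shown as a description, and their part in the knockdown values was not tested. They are from RefSeq (GRCm38.p6), which gives a window for 4 of the 6 genes: Tdpoz1, Tdpoz4, Tdpoz5, and Spop. A set of 3 motifs had been listed and was searched on both strands: the TATA box TATAAA, the CCAAT box, as CCAAT itself, and the GC box GGGCGG. The motif TATATAA, which does not contain TATAAA, and the run TTCTTCTTTTCAG were added after the windows had been read. Capitals mark TATATAA upstream of Tdpoz1 (chr3:93676311-93676533, minus strand), the run TTCTTCTTTTCAG upstream of Tdpoz4 (chr3:93796148-93796397, plus strand), and GGGCGG on either strand upstream of Spop (chr11:95413833-95414079, plus strand).
Tdpoz1: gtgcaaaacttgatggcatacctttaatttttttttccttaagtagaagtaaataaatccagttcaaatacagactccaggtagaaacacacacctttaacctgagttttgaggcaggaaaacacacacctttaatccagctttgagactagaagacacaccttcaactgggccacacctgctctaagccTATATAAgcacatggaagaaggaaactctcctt
Tdpoz4: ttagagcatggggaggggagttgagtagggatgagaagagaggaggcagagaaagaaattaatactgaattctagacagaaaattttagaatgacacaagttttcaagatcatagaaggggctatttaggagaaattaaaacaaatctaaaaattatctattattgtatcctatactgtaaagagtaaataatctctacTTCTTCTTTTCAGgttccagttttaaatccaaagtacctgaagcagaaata
Spop: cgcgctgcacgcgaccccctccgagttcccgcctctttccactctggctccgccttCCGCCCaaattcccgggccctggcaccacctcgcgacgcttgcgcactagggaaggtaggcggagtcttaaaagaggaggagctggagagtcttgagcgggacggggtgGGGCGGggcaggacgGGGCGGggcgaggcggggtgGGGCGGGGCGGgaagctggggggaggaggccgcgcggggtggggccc
The TATATAA of Tdpoz1 begins 33 bases before the start of the GENCODE gene and 60 bases before the RefSeq start. The 1-exon transcript of the deposited row starts 4.741 kb further downstream, so this window is not directly before it. It also occurs in the windows of the family members Tdpoz8 (the first of its 2 windows), Tdpoz9, and Spopfm2, and in 3.24% of 32851 mouse promoter windows. TATAAA was in no window of the 4 genes (13.6% of all windows), and CCAAT (37.4% of all windows) was in those of Tdpoz1 and Tdpoz5. The Spop window held GGGCGG 4 times on the given strand and 1 time on the other (35.7% of all windows hold it), and 73.7% of its bases were G or C, compared with 36.7% for Tdpoz4 and 41.3% for Tdpoz1.

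The window of Tdpoz4 was 96.2% identical over 293 aligned bases to the second window of Tdpoz8, which the table lists as Gm4858. The run of 13 bases ending in AG lies directly before an annotated exon of Gm4858, 4.663 kb after the first exon of that gene. Upstream of Tdpoz4 it ends 38 bases before the start of the model, and it occurs in 0.0213% of all windows. The model of Tdpoz4 begins at the first coding base, so this window need not begin at a transcription start site.

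Tdpoz4 had the most counted reads of the Tdpoz genes in control cells. Its log2 values were 0.48, 0.43, and -0.42 in control libraries A, B, and C, which rest on 46, 77, and 20 reads. All 3 Dppa2 siRNA and all 3 Dppa4 siRNA libraries were at the lowest value of the library, that is 0 reads. That the groups did not overlap follows from these 0 reads, and the share of all genes tested without overlap was not computed. With a floor of 3 reads per library, Tdpoz4 was at least 11-fold lower with Dppa2 siRNA and at least 13.5-fold lower with Dppa4 siRNA. These floors account for counting error in the knockdown libraries, and the read intervals for that in control libraries as well. Neither goes beyond counting error, since without molecular identifiers several reads can stem from 1 molecule. In limma, with Benjamini-Hochberg adjustment over 14601 genes, the log2 difference was -4.65 ± 0.42 (SE; adjusted p = 0.000405) for Dppa2 siRNA and -4.65 ± 0.42 (SE; adjusted p = 0.000432) for Dppa4 siRNA. These differences are set by the lowest value of each library and are not bounds on the fold change. At that value the knockdown libraries hold almost no spread (SD 0.0066 with Dppa2 and 0.0032 with Dppa4 siRNA, against 0.504 in control). The SE and p therefore do not measure spread between knockdown libraries.

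Tdpoz3 followed with fewer counted reads. Control libraries A, B, and C had log2 values of -0.35, -1.08, and -1.45, from 26, 29, and 10 reads, and all 6 knockdown libraries had 0 reads. As for Tdpoz4, the lack of overlap between groups follows from these 0 reads. Tdpoz3 was at least 5.23-fold lower with Dppa2 siRNA and at least 6.43-fold lower with Dppa4 siRNA. The log2 differences were -3.52 ± 0.47 (SE; limma adjusted p = 0.00402) and -3.53 ± 0.47 (SE; limma adjusted p = 0.00466). Their SE and p carry the same limit as those of Tdpoz4. High-confidence genes were those that also passed an intensity difference filter, which compares a gene with the 1% of genes nearest in expression. Tdpoz4 passed it with probabilities of 0.00587 for Dppa2 and 0.00231 for Dppa4 siRNA, whereas Tdpoz3 was close to the threshold of 0.05, with 0.0425 and 0.0322. Without library B of the Dppa2 siRNA group, Tdpoz3 was no longer high-confidence for Dppa2 siRNA, although its limma adjusted p was 0.0165.

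Of all 14601 genes tested, 1.59% were high-confidence and lower with Dppa2 siRNA and 1.58% with Dppa4 siRNA. Tdpoz3 and Tdpoz4 were the only Tdpoz rows that entered the test, and they entered through the control libraries alone, so their number among the called genes is a description. Among 13435 rows with at least 10 reads in each control library, 29 (0.216%) had no reads in all 6 knockdown libraries, Tdpoz3 and Tdpoz4 among them. Most of those rows are deeper. Among 1673 rows with 10 to 80 reads in each control library, a range set after the reads of the members had been seen, 23 (1.37%) had no reads in the 6 knockdown libraries.

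Tdpoz1 had 1, 5, and 1 reads in control libraries A, B, and C (log2 values of -4.41, -3.90, and -4.28) and 0 reads in the 6 knockdown libraries. Over the 3 libraries together, 0 reads allow up to 92.2% of the control level with Dppa2 siRNA and up to 75.8% with Dppa4 siRNA (upper limits of the 95% exact Clopper-Pearson intervals, which leave out the spread between libraries). No fold is given, because the mean of 0.0726 RPM (reads per Mreads on genes) in control cells is under the floor of 3 reads per library (0.147 RPM with Dppa2 and 0.119 with Dppa4 siRNA). Of the 3043 rows that had reads in control cells, but at most 9 in any control library, 25.8% had no reads in the 6 knockdown libraries. Tdpoz1 did not pass the filter on low values, and in a limma fit with no filter its log2 difference was -0.29 ± 0.11 (SE; adjusted p = 0.105) for Dppa2 and -0.30 ± 0.11 (SE; adjusted p = 0.336) for Dppa4 siRNA.

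Tdpoz5 and AC132362.1, the row at the place of Tdpoz2, had 0 reads in all 9 libraries. For AC132362.1, a count of 0 allows up to 0.0753 to 0.155 RPM of counted reads in the control libraries. For Tdpoz5 the 0 sets no such limit, because all its stretches are shared with Gm10697, which had 3 reads in control library A. With both knockdowns at 0 reads for every Tdpoz gene, no difference between Dppa2 and Dppa4 siRNA can be given for them. Over all genes tested, 0.0205% were high-confidence in that comparison, and no member was among them.

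**Figure D2:**
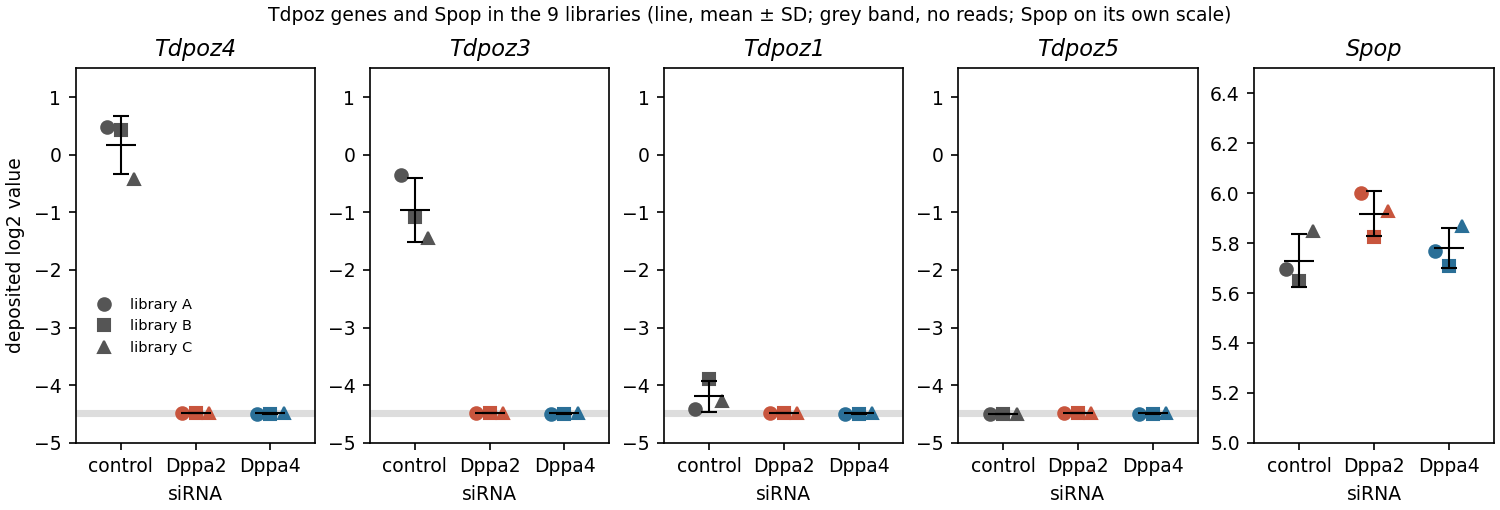
Deposited log2 values (vertical axis) of Tdpoz4, Tdpoz3, Tdpoz1, Tdpoz5, and Spop by siRNA (horizontal axis). Symbols are libraries A, B, and C, lines give the mean ± SD of 3 libraries, and the grey band marks the value of 0 reads. Tdpoz4 and Tdpoz3 leave the band only with control siRNA, Tdpoz5 never leaves it, and Spop, on its own axis, lies between 5.65 and 6.0 in all 9 libraries.

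The chromosome 3 region holds further relatives of the Tdpoz genes, most of them named only as predicted genes in the table. There are 11 such rows, AC132362.1 included, and 7 of them had reads in control cells. Gm4778, which RefSeq names Spopfm1, had the most counted reads, with 94, 115, and 26 reads in control libraries A, B, and C. With Dppa2 siRNA it had 0, 3, and 0 reads, or 1.70% of the control level (95% exact Clopper-Pearson interval 0.347% to 5.02%), and with Dppa4 siRNA 2, 0, and 0 reads, or 0.929% (0.112% to 3.395%). Its log2 differences were -4.72 ± 0.62 (SE; limma adjusted p = 0.00377) and -5.11 ± 0.62 (SE; limma adjusted p = 0.00263), and it was high-confidence in both. They are set largely by the lowest value of the libraries with 0 reads, and with Dppa2 siRNA by the 3 reads of library B (log2 -2.65). These differences are therefore not measures of the fold change, and the gap between the knockdowns did not pass (limma adjusted p = 0.98). Gm4858 (RefSeq Tdpoz8), 94.1% identical to Tdpoz4 in coding sequence, had 8, 9, and 3 reads in control libraries and none in the knockdowns. Gm10696 (RefSeq Spopfm2) had 4, 3, and 5 reads in control libraries and none in the knockdowns. The other 4 rows with reads had 1 to 3 reads over the 3 control libraries.

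Summed over all 15 rows, the 4 Tdpoz rows included, the family had 490 reads in control, 3 in Dppa2 siRNA, and 2 in Dppa4 siRNA libraries. This corresponds to 0.814% (95% exact Clopper-Pearson interval 0.167% to 2.39%) and 0.446% (0.0538% to 1.62%) of the control level. Splitting of reads between these rows does not enter the sum if each read was counted once. Reads shared between these rows could still be lost or counted more than once. Those shared with pseudogenes that have no row, such as Gm5541 and Gm4982, could be counted or lost.

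**Figure D3:**
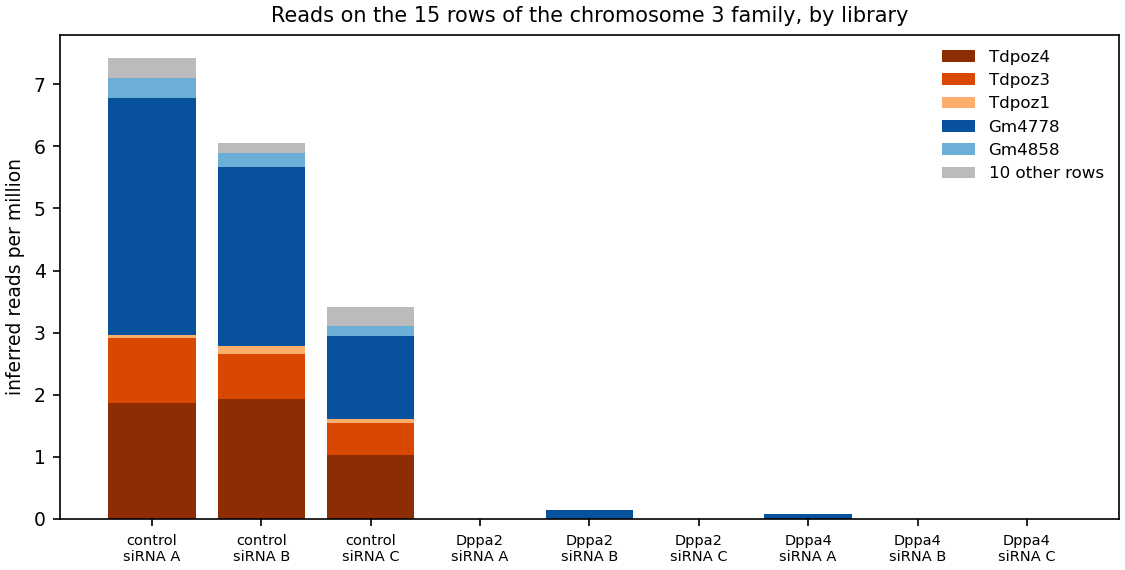
Inferred reads relative to library depth (RPM, vertical axis) on the 15 rows of the chromosome 3 family in each of the 9 libraries (horizontal axis), stacked by gene. The control libraries hold Tdpoz4, Tdpoz3, Gm4778, and small amounts of other rows, and among the knockdown libraries only Dppa2 siRNA B and Dppa4 siRNA A hold any read, all on Gm4778.

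**Figure D4:**
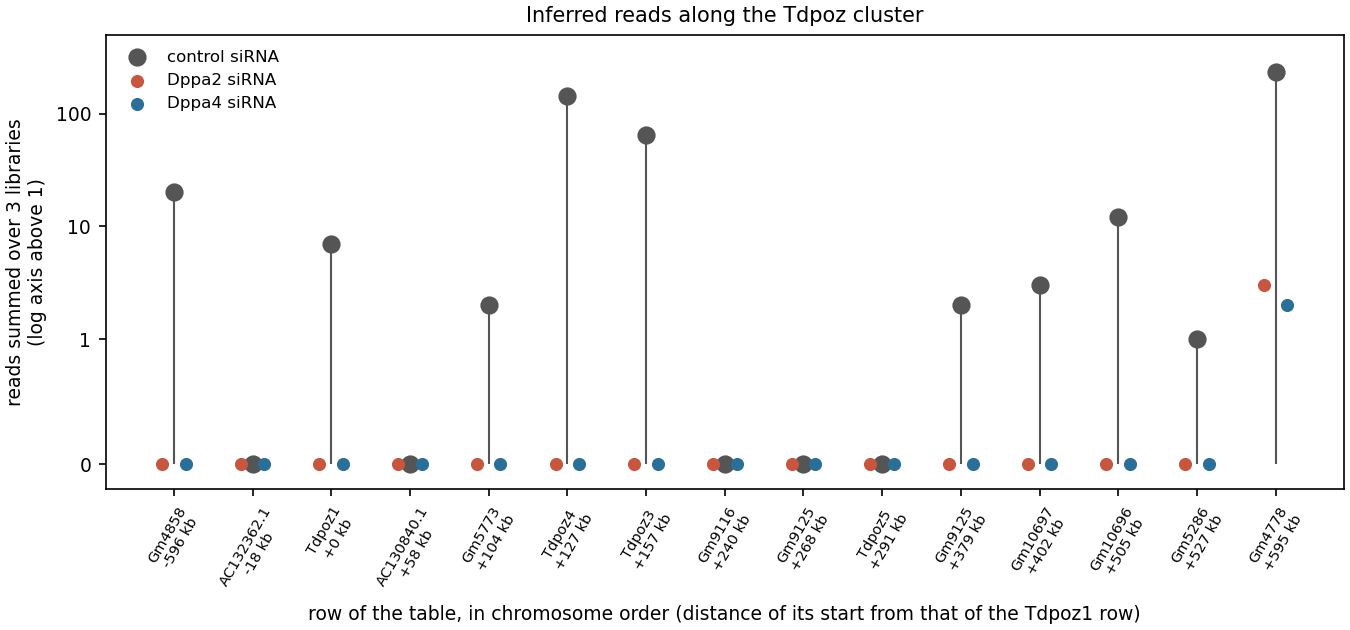
Inferred reads summed over 3 libraries (vertical axis, logarithmic above 1) for the family rows in chromosome order (horizontal axis, with the distance in kb from the start of the Tdpoz1 row). Grey points are control siRNA, red points Dppa2 siRNA, and blue points Dppa4 siRNA; 10 of the 15 rows have reads in control cells, and Gm4778 is the only row with reads in the knockdowns.

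The other genes around the cluster were compared next. Within 500 kb of the Tdpoz rows the table has 38 rows, of which 10 were tested and 3 were high-confidence in each knockdown. All 3 were family members, Tdpoz4, Tdpoz3, and Gm4778, and they entered the test through the control libraries alone, so this number is a description (2.01% of all genes tested were high-confidence in each knockdown). None of the other 7 passed the limma test, including S100a10 and S100a11, which encode proteins of the S100 family and lie on the same side of the cluster. S100a10 had log2 differences of -0.06 and -0.14 (limma adjusted p = 0.981 and 0.879). Tdrkh, a piRNA pathway gene on the other side, had values of -0.49 and -0.41 that did not pass (limma adjusted p = 0.119 and 0.165).

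Per kb of transcript, Spop was expressed far above the Tdpoz genes. In control cells, levels were 25.8 ± 1.9 reads per kb and Mreads for Spop, 1.45 ± 0.45 for Tdpoz4, 0.698 ± 0.247 for Tdpoz3, and 0.0324 ± 0.0206 for Tdpoz1 (SD, n = 3 each), with 2.16 ± 1.005 for Gm4778. In each of the 3 control libraries the order of these values was Spop, Gm4778, Tdpoz4, Tdpoz3, and Tdpoz1. They divide counted reads by the whole transcript length. The share of unique stretches was 100% in Spop, 89.7% in Gm4778, 58.8% in Tdpoz4, 33.8% in Tdpoz3, and 58.5% in Tdpoz1. If shared reads were set aside, genes with fewer unique stretches are given too low a level. The order of Gm4778, Tdpoz4, and Tdpoz3 and the ratios of Spop to Tdpoz4 could then differ. The neighbours Gm4778 and Tdpoz4 lay within their spread over libraries, as their ranges of 1.08 to 3.07 and 0.930 to 1.74 overlapped, whereas those of Tdpoz3 and Tdpoz4 overlapped only slightly (0.471 to 0.961 for Tdpoz3). The level of Spop was 15, 14, and 30.03 times that of Tdpoz4 in libraries A, B, and C. Library C had the lowest value of Tdpoz4, Tdpoz3, Gm4778, and Gm4858, and it was the lowest for 6 of 12 other 2-cell genes.

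Spop itself did not pass the test in either knockdown. Its log2 values were 5.70, 5.65, and 5.85 in control, 6.0, 5.82, and 5.93 in Dppa2 siRNA, and 5.77, 5.71, and 5.87 in Dppa4 siRNA libraries. The groups overlapped. The log2 difference was 0.19 for Dppa2 siRNA (95% interval -0.03 to 0.41, limma adjusted p = 0.42) and 0.05 for Dppa4 siRNA (95% interval -0.17 to 0.27, limma adjusted p = 0.87). Dppa4 siRNA minus Dppa2 siRNA gave -0.14 (95% interval -0.36 to 0.08, limma adjusted p = 0.858). On the linear scale, the intervals run from -2.15% to 32.6% for Dppa2 and from -10.97% to 20.7% for Dppa4 siRNA. A larger decrease of Spop is outside them. Smaller changes are not, nor are rises of up to 32.6% with Dppa2 and 20.7% with Dppa4 siRNA.

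Genes that act with Spop were examined as a list of 15, written with earlier results known. It holds Spopl, Cul3 and Rbx1 (scaffold and RING subunit of the ligase), the NEDD8 pathway that activates cullins, and the COP9 signalosome that reverses this step. All 15 were tested and none passed in either knockdown (0 of 15 in limma, where 3.44% of all genes passed in each comparison; at an unadjusted limma p below 0.05 there were 0 and 1, beside 15.7% and 18% of all genes tested). The median log2 difference was -0.02 for Dppa2 and -0.05 for Dppa4 siRNA, beside 0.02 and 0.03 over all genes tested. Spopl differed by 0.01 and -0.21 (limma adjusted p = 0.995 and 0.697). The highest expressed of the list in control cells, Cand1, which exchanges the adaptors of cullins, had values of -0.25 and -0.35 that did not pass (limma adjusted p = 0.338 and 0.145).

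**Figure D5:**
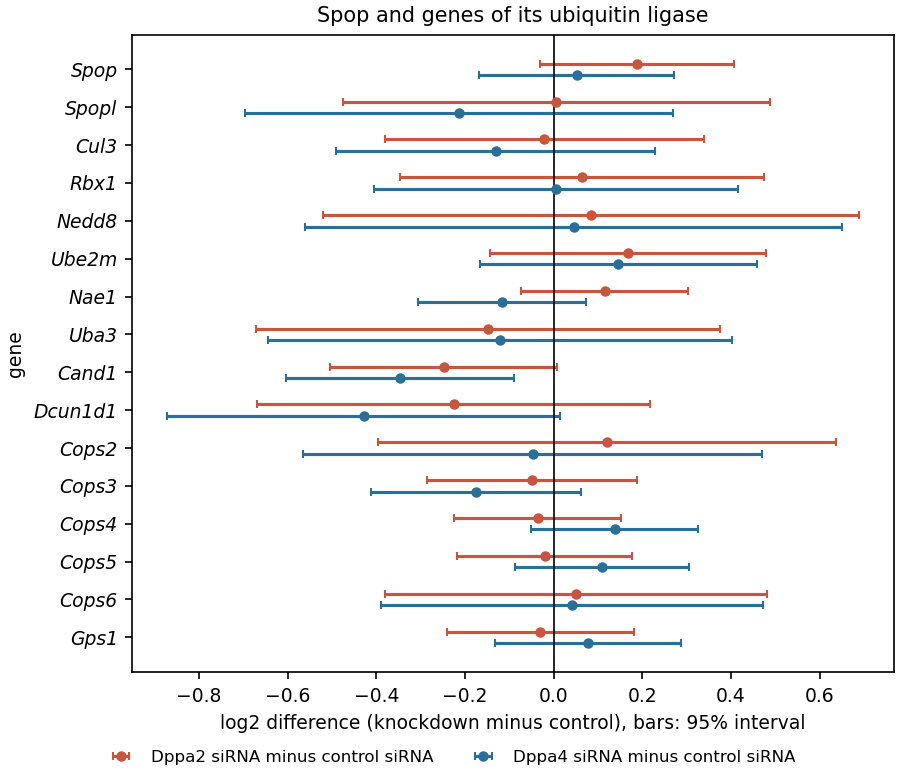
Log2 differences (horizontal axis) of Spop and 15 genes of its ligase (vertical axis) for Dppa2 siRNA (red) and Dppa4 siRNA (blue) minus control siRNA, with 95% intervals from limma. The differences lie between -0.43 and 0.19, and none of the genes passed after adjustment over all genes tested.

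The proteins that SPOP is known to bind as substrates were also measured only as RNA. Of 15 such genes, 0 passed limma in either knockdown, with 0 and 3 at an unadjusted p below 0.05 (15.7% and 18% of all genes tested), and medians of -0.13 and -0.11 on the log2 scale. Nanog, the most abundant of them, had differences of -0.22 and -0.28 (limma adjusted p = 0.714 and 0.526), and Senp7, the least abundant, 0.19 and 0.10 (limma adjusted p = 0.79 and 0.883). Of 33 other BTB genes that serve as Cullin 3 adaptors, 1 was high-confidence. This was Rhobtb3, which fell by 1.03 ± 0.16 on the log2 scale (SE; limma adjusted p = 0.00959) with Dppa4 siRNA, from a mean of 2.88 to 1.85. With Dppa2 siRNA its difference was -0.55 (limma adjusted p = 0.121), and the difference between the knockdowns did not pass (limma adjusted p = 0.674). That count of 1 of 33 is near the background, since 2.01% of all genes tested were high-confidence with Dppa4 siRNA. Of 9 tested genes that share the MATH domain only, 0 passed limma in either knockdown and 0 had an unadjusted p below 0.05. Usp7 was the most abundant, with differences of -0.10 and -0.17, and Traf5 the least abundant, with -0.25 and -0.16.

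Around Spop on chromosome 11, 36 rows lie within 500 kb and 23 were tested. Dlx4, a homeobox gene, rose by 3.05 on the log2 scale with Dppa2 siRNA (limma adjusted p = 0.00915). With Dppa4 siRNA it rose by 2.20 (limma adjusted p = 0.0427, not high-confidence). These means rest on 16 reads in all control libraries together, 54 with Dppa2 siRNA, and 39 with Dppa4 siRNA. The log2 differences of rows with few reads can exceed those of reads per Mreads. For example, 3 reads stood at log2 -4.35 (0.0753 RPM) in control library B and at -2.42 (0.175 RPM) in Dppa2 siRNA library C. Ppp1r9b, which encodes a scaffold of protein phosphatase 1, fell by 0.43 with Dppa2 siRNA (limma adjusted p = 0.043), and its difference of -0.32 with Dppa4 siRNA did not pass (limma adjusted p = 0.107). Samd14, with 53 reads in control, 80 with Dppa2 siRNA, and 69 with Dppa4 siRNA, carries the same limit. It passed limma alone with Dppa2 siRNA, with a difference of 1.47 (adjusted p = 0.0432), and had 0.998 with Dppa4 siRNA, which did not pass (limma adjusted p = 0.14). The nearest tested genes, Slc35b1 and Nxph3, did not pass, with differences of -0.07 and 0.47 for Dppa2 siRNA (limma adjusted p = 0.885 and 0.298) and of 0.19 and 0.47 for Dppa4 siRNA (limma adjusted p = 0.347 and 0.269).

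By the measure of likeness fixed for this purpose, Pearson's r over the 9 libraries, the genes most like Tdpoz4 were Zscan4f (r = 0.999), Abcb5 (0.999), Dcc (0.998), AC164627.1 (0.996), and AW822073 (0.996). Tdpoz3 had r = 0.995. In all, 20 of 14598 other tested genes had r above 0.99. These values are a description, because 3 control libraries stand against 6 knockdown libraries at or near 0 reads and fix most of r. For Spop the highest values were those of 6720463M24Rik (0.973), Asb3 (0.958), Pknox1 (0.923), Ctsw (0.916), and Zfp395 (0.915). Between Spop and Tdpoz4, r was -0.56.

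For comparison, 12 other genes of the 2-cell state were tested, and all 12 were lower in limma in both knockdowns (2.27% and 2.34% of all genes tested were), with medians of -6.21 and -6.03 on the log2 scale. For genes at or near 0 reads in the knockdowns, the log2 difference depends mostly on the control level. The medians therefore do not show a stronger fall than that of Tdpoz4 or Tdpoz3. Of them, 12 were high-confidence with Dppa2 and 11 with Dppa4 siRNA, and they too entered the test through the control libraries. Zscan4d, the most abundant, had 3356 reads in control and 17 in each knockdown group, and Tcstv1, with 55 reads in control cells, near the 65 of Tdpoz3, had 0 in both.

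Markers of other cell types were read beside these values. Of 7 primitive endoderm markers, 2 (Gata6 and Sox17) were higher in limma with Dppa4 siRNA and none with Dppa2 siRNA (1.1% and 1.16% of all genes tested were), and the summed linear level was 10.2 to 14 in control, 13.7 to 17.2 in Dppa2 siRNA, and 19.6 to 22.0 in Dppa4 siRNA libraries. None of the 7 was at 0 in all libraries. Their part in the Tdpoz values was not tested. Of 7 oocyte markers, Zp2, Oosp1, and Oog1 had no reads in any library, and the 2 that were tested, Zp3 and Gdf9, did not pass. Of 7 fibroblast markers 2 were tested and of 6 trophoblast markers 4, and none of these passed.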

How the data were processed

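RNA-seq of 9 libraries of E14 ESCs (control, Dppa2, or Dppa4 siRNA, 3 each) was used. Per the labels and the study's methods, the authors used Trim Galore (version 0.4.5 per the labels) for trimming and HISAT2 2.0.5 for mapping to GRCm38, quantitated mRNA probes strand-specifically in SeqMonk, matched the distributions of the libraries, and deposited normalized log2 values for 25965 genes. The deposited log2 values were tested with limma 3.58.1 in R 4.3.3. The count model of the study could not be used, since the deposited table holds no counts. Genes were tested (14601) if 3 or more of the 9 libraries exceeded -2, all 9 libraries shared 1 estimate of the spread with an intensity trend, p-values were adjusted over all genes tested (Benjamini-Hochberg, 0.05), and the intensity difference filter was rebuilt from the 1% of genes nearest in expression (p below 0.05).

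Each step between distinct values was taken as 1 read up to 300 reads, and larger numbers came from a straight line through the genes with 100 to 300 reads, so totals are estimates. This inference and the limma fit were tested on simulated data. Annotation and transcripts are from GENCODE M21, gene names and promoter windows from RefSeq. Identities were computed from global alignments in Biopython 1.88, and tables and figures were made in Python 3.11.15 (matplotlib 3.10.9, scipy 1.17.1, numpy 2.4.6, pandas 2.3.3). Members, lists, and relatives were chosen with earlier results of these data known. Named genes were the members, list genes that passed or else the most and least abundant, neighbours within 500 kb that passed, and the 5 genes most like Tdpoz4 and Spop; S100a10, Tdrkh, Slc35b1, Nxph3, Spopl, and the relatives were named in addition. Alternatives were the call rule, the filter, a pseudocount of 1, the trend, the groups fitted, centring, the replicate letter as a block, and leaving out each library.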

Additional observations from a re-analysis of the deposited data

How the results depend on the processing

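Tdpoz4 kept its direction and its high-confidence call under each alternative in which it was tested, with log2 differences of -4.94 to -1.04 for both knockdowns, the smallest with a pseudocount of 1 (-1.04 for each). Tdpoz3 ranged from -3.77 to -0.55 and kept its call except without library B of the Dppa2 siRNA group. Spop passed under no alternative, with 0.15 to 0.25 for Dppa2 siRNA, 0.01 to 0.11 for Dppa4 siRNA, and -0.18 to -0.09 for the difference between them. A stricter filter (above 0 in 3 libraries) left 0 Tdpoz genes tested, and so 0 high-confidence members in both knockdowns, because fewer genes were tested. Leaving out 1 library gave 1 to 2 high-confidence members for Dppa2 siRNA, 2 to 2 for Dppa4 siRNA, and 0 to 0 for the difference between the knockdowns. The tested genes were kept for this, a choice made after the data had been seen, since the filter applied anew without 1 control library leaves 0 Tdpoz genes tested. A floor of 3 reads over the group, in place of each library, gave folds of 33.9 (Dppa2 siRNA) and 41.2 (Dppa4 siRNA) for Tdpoz4. For Tdpoz3 it gave 16.1 and 19.6. These folds take the control mean without its counting error, so they are not lower bounds. The exact Clopper-Pearson intervals are weaker and allow up to 3.47% and 2.85% of the control level for Tdpoz4. For Tdpoz3 they allow up to 7.76% and 6.38%. Tdpoz rows below 3 reads per library set the limit of depth.

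Over all genes, 293 were high-confidence with Dppa2 and 293 with Dppa4 siRNA, and 3 differed between the knockdowns. limma alone gave 502 and 502, no filter gave 587 for Dppa2 siRNA, and only the 2 groups compared gave 184 for Dppa2 siRNA. Leaving out 1 library gave 191 to 247, 154 to 296, and 1 to 3; the lowest counts were without library C of Dppa2 siRNA (191) and library B of Dppa4 siRNA (154), with 173 without its library A, and 1 gene differed between the knockdowns without library B or C of Dppa4 siRNA. The cause was not tested. The replicate letters did not pair the samples (correlations of deviations from -0.585 to 0.367 for the 9 pairs with the same letter, 2 of them above 0.1, and the best match had the same letter in 4 of 18 comparisons). The 18 pairs with other letters ranged from -0.658 to 0.692, with 6 above 0.1. The highest was control library A with Dppa2 siRNA library B. Variation shared across groups under other letters entered no fit, and its cause was not tested. With the letters as a replicate block, 196, 176, and 1 genes were high-confidence, and Tdpoz4 and Tdpoz3 remained so in both knockdowns (limma adjusted p of 0.00528 to 0.0271).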

Other observations

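Besides Tdpoz3 and Tdpoz4, 27 rows had at least 10 reads in each control library and none in the 6 knockdown libraries. They were named after their values had been seen. They include Tcstv1 and Ubtfl1, both known from early embryos, Trim52, Spz1, Sohlh1 (a transcription factor of germ cells), Abcb5, and Ptpro. Of the 5 genes most like Tdpoz4 over the 9 libraries, Abcb5 and Dcc are among these rows.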
